A study of Mus musculus with 8 samples.

Results

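Small nucleolar RNA (snoRNA) genes were read from a table of transcripts in hearts of fetal mice that had or lacked Dio3, the gene for the deiodinase that inactivates thyroid hormone. They are the 99 genes, of 26590 in the table, whose symbol begins with Snord or Snora followed by a digit: 64 Snord and 35 Snora genes. A gene was represented by its row with the highest average of the means of both genotypes, a choice that mattered for 1 gene only, Snord58b, whose 2 rows were at 0. Total RNA of 8 hearts, 1 heart per fetus, was sequenced after removal of ribosomal RNA, with 4 Dio3+/+ and 4 Dio3-/- hearts. The fetuses were C57BL/6J males, the Dio3 mutation having been made on a 129/SVJ background and crossed into C57BL/6J. The mutation was present in every tissue, so the whole fetus, not the heart alone, lacked Dio3 in the Dio3-/- group. Hormone levels of these fetuses are not among the values used here. Sample titles give E13.5 (embryonic day), whereas the age field gives E18.5 for 2 of the 4 Dio3-/- hearts and the study's methods name another day, and genotype and age cannot be told apart in a table that holds no single hearts. The table gives, for each genotype, the mean in RPKM (reads relative to transcript length and sequencing depth) and the coefficient of variation (CV, the SD divided by the mean), so each value below is a mean of 4 hearts and its error was rebuilt from the CV.

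Small nucleolar RNAs guide the modification of other RNAs, chiefly ribosomal RNA, by base pairing with the site to be changed. Box C/D snoRNAs, named Snord, carry the methylase fibrillarin to the sugar of the chosen nucleotide. Box H/ACA snoRNAs, named Snora, carry the pseudouridine synthase dyskerin. In mammals most lie within introns of other genes, many of which encode ribosomal proteins or translation factors, and the mature snoRNA is trimmed from the excised intron. The level of a snoRNA therefore depends on transcription of its host, on trimming and on the proteins that coat it.

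All 99 genes were matched to the GENCODE M21 annotation of GRCm38, and the sequences shown here come from it, since the table itself gives no coordinates. Snord transcripts had a median length of 79.5 nucleotides (64 to 238) and Snora transcripts one of 132 (121 to 196). The box C core TGATGA lay in the first 25 bases of 40 of 64 Snord transcripts (62.5%) and the box D sequence CTGA in the last 15 bases of 57 (89.1%), against 0 and 1 of the 35 Snora transcripts. An ACA lay in the last 10 bases of 33 of 35 Snora transcripts (94.3%) and of 7 Snord transcripts (10.9%), so the symbols and the transcripts describe the same pair of families. Shown are the Snora and Snord RNAs with the lowest adjusted p in each family (Snora28 and Snord100), and the most abundant of the RNAs that passed the test in each family (Snord16a and Snora52). Also shown are 2 neighbours from 1 host that differed in outcome (Snora44 and Snora61). Snord12 is the RNA above 10 RPKM with the largest value in the other direction, and Snord49b is a further RNA with both TGATGA and CTGA. Capitals mark TGATGA and CTGA in Snord RNAs and ACA in Snora RNAs, on the strand of the RNA. In Snora44 the ACA search found no match and in Snord16a only CTGA was found.
Snora28: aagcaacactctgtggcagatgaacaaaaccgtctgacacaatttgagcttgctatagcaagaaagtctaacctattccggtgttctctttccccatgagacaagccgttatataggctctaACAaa
Snora52: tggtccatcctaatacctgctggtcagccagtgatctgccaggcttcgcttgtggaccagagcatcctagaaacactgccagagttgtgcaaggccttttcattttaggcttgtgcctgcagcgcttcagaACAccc
Snora44: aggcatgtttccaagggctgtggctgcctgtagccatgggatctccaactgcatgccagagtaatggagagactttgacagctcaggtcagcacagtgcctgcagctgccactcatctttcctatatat
Snora61: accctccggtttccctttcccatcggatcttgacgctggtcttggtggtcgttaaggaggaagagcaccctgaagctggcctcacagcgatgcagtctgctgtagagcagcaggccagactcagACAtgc
Snord16a: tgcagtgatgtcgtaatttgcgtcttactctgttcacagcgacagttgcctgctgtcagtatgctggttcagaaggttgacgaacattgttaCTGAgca
Snord100: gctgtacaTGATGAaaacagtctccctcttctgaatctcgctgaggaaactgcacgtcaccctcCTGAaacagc
Snord49b: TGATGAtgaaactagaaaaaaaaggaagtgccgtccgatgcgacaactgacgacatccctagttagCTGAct
Snord12: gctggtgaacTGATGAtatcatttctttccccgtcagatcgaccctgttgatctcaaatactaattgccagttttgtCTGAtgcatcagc

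In GRCm38, Snora28 lies at chr12:111540941-111541067 (plus strand) within Eif5, and Snora52 at chr7:141448803-141448939 (plus) within Rplp2. Snora44 and Snora61 lie at chr4:132309941-132310069 and chr4:132310240-132310369 (both plus) within the noncoding gene Snhg12. Snord16a is at chr9:64175423-64175521 (plus) within Rpl4, and Snord100 at chr10:23785750-23785823 (minus) within Rps12. Snord49b is at chr11:62603079-62603150 (plus) within 2410006H16Rik, and Snord12 at chr2:167065276-167065365 (plus) within the noncoding host Zfas1, which the table calls 1500012F01Rik.

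The summed level of the 99 snoRNA genes was 923.30 RPKM in Dio3+/+ hearts and 594.34 RPKM in Dio3-/- hearts, a ratio of 0.644. Snord genes summed to 440.51 and 272.31 RPKM and Snora genes to 482.79 and 322.03 RPKM, ratios of 0.618 and 0.667, sums that carry no test. A few RNAs made up much of these sums: the 5 highest genes, Snora74a, Snord16a, Snord17, Snora52 and Snord15a, held 50.4% of the total in Dio3+/+ and 47.8% in Dio3-/- hearts. As the hearts were measured in bulk, fewer cells that make a snoRNA and less of it per cell cannot be told apart.

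Of the 99 genes, 57 exceeded 1 RPKM in either genotype and were tested with the rest of the table: 30 of 64 Snord genes (46.9%) and 27 of 35 Snora genes (77.1%). Of the tested genes 52 were above 1 RPKM in both genotypes, 4 passed through Dio3+/+ hearts alone and 1, Snord11, through Dio3-/- hearts alone, and those 5 had to differ in that direction. The other 42 genes were not tested. Of them 8 were at 0 in both genotypes (Snord37, Snord52, Snord58b, Snord72, Snord88a, Snord90, Snord91a and Snora19), 22 had the higher mean in Dio3+/+ and 12 in Dio3-/- hearts, and none exceeded 0.82 RPKM. Just inside the limit were Snord71 (1.06 and 0.61 RPKM in Dio3+/+ and Dio3-/-) and Snord8 (1.09 and 0.29), and just outside it were Snord61 (0.82 and 0.50) and Snora41 (0.77 and 0.81).

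Lower levels in Dio3-/- hearts were spread over both families. In limma's moderated test on log2(RPKM + 0.5), with Benjamini-Hochberg adjustment over all 32703 rows tested, 10 of the 57 genes passed an adjusted p of 0.05 and each of these was lower in Dio3-/-: 7 Snora and 3 Snord genes. Of all rows tested, 2.15% passed in either direction and 0.266% passed as lower (87 rows, against 616 higher), and the 10 snoRNA genes made up 11.5% of those 87 rows. Welch's test on the same summaries called 0 of the 57 genes, with 18 lower at an unadjusted p under 0.05, and limma called 5 without the filter on low values. Counting direction alone, 50 of the 57 genes had a negative log2 fold change (25 of 30 Snord and 25 of 27 Snora genes), against 36.4% of all rows. An unadjusted p under 0.05 was reached by 28 genes that were lower (15 Snord, 13 Snora; 3.86% of all rows) and by 2 that were higher, Snord11 and Snord12. The Dio3+/+ mean exceeded the Dio3-/- mean by more than 1.5 times in 31 genes (17 Snord, 14 Snora; 2.36% of all rows), and the reverse held for 1 gene, Snord11. The filter fixed the direction of Snord8, Snord71, Snord82 and Snord95 (lower) and of Snord11 (higher), which are part of the count of directions. Among them, Snord8 and Snord11 reached the unadjusted p, and all but Snord82 exceeded the ratio of 1.5. Since the snoRNA genes were gathered with results of this table known, the counts describe them and carry no test of their own.

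**Figure D1:**
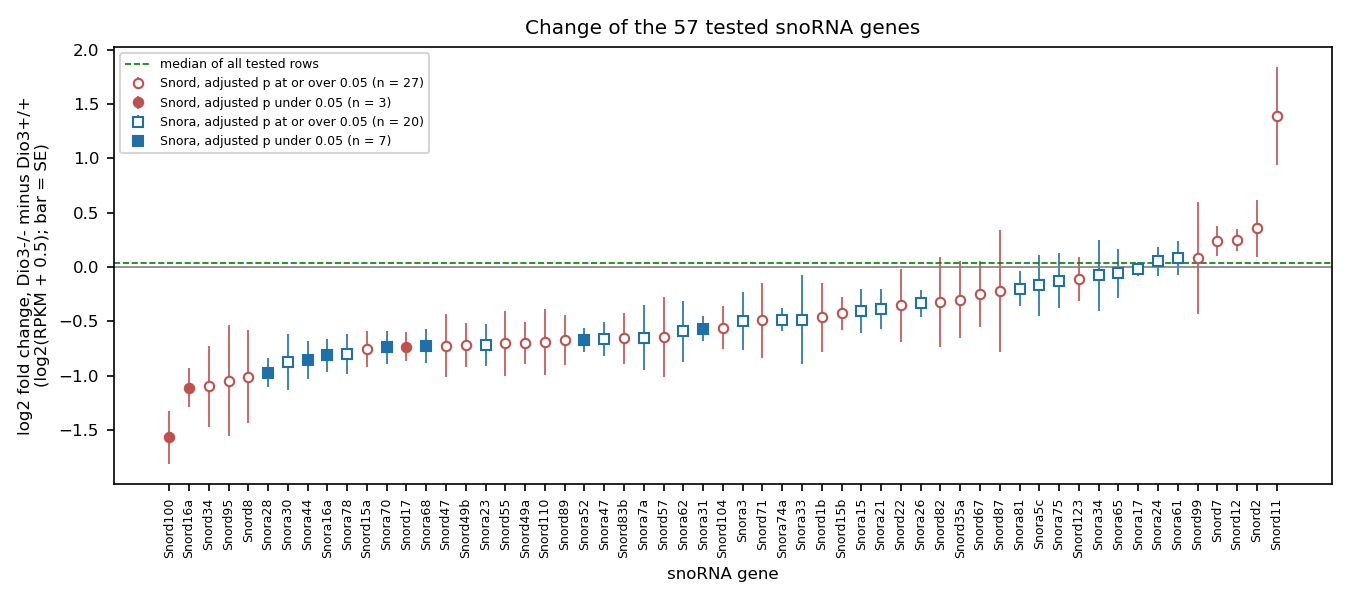
The log2 fold change on log2(RPKM + 0.5), Dio3-/- minus Dio3+/+ with its SE, is plotted for the 57 tested snoRNA genes in order of size; circles are Snord and squares Snora genes, filled where the limma adjusted p was under 0.05. Values run from -1.57 (Snord100) to 1.39 (Snord11), 50 of 57 lie below 0, and the dashed line marks the median of all tested rows (0.04).

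The median log2 fold change was -0.56 over the 57 genes, -0.60 for Snord and -0.50 for Snora genes, while the median over all tested rows was 0.04. The families thus had like medians. Over all tested genes they differed in level and spread. The median RPKM over both genotypes was 2.31 for Snord and 6.95 for Snora genes. Median CVs in Dio3+/+ and Dio3-/- hearts were 0.40 and 0.40 for Snord and 0.14 and 0.27 for Snora genes. Above 5 RPKM, where error was smaller, the families were closer, with median levels of 16.4 and 14.2 RPKM. Median CVs there were 0.115 and 0.265 for Snord and 0.12 and 0.21 for Snora genes. The median log2 fold changes there were -0.68 for 12 Snord and -0.72 for 15 Snora genes, and 2 Snord and 7 Snora genes passed the test. Among the 30 tested genes at or below 5 RPKM the median was -0.39 and 1 gene passed, Snord100. The difference between the families was not tested. Across the 57 genes, which share libraries and hosts, Spearman's rho of the log2 fold change was -0.32 with log2 mean RPKM and 0.00 with transcript length. As the added 0.5 understates fold changes of low genes, part of the relation to level may come from the scale.

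Among Snora genes, the RNA with the lowest adjusted p was Snora28, carried by the translation initiation factor gene Eif5. Snora28 had a mean of 44.81 RPKM (CV 0.09) in Dio3+/+ and 22.57 RPKM (CV 0.21) in Dio3-/- hearts, which is -0.97 ± 0.13 as log2 fold change (SE; limma adjusted p = 0.00777). Snora52, from the ribosomal protein gene Rplp2, had the tightest Dio3+/+ values of the snoRNA genes named here, with 63.85 RPKM (CV 0.03) against 39.98 RPKM (CV 0.18), a log2 fold change of -0.67 ± 0.11 (limma adjusted p = 0.0183). The means of these 2 genes lay so far apart for their SDs that no heart of 1 genotype can have overlapped a heart of the other, since none of 4 values can lie more than 1.5 SDs from their mean. This held in the same direction for 9 snoRNA genes, Snora23, Snora28, Snora44, Snora47, Snora52, Snora70, Snord16a, Snord17 and Snord100, and in the other direction for none, against 0.361% of all rows in the same direction. For the remaining genes the summary values do not say whether single hearts overlapped.

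The other called Snora genes were of intermediate level and fell by 1.51 to 1.83 times. Snora68 was at 26.46 RPKM (CV 0.14) in Dio3+/+ and 15.79 RPKM (CV 0.23) in Dio3-/- hearts, with a limma adjusted p of 0.0483. Snora70 (host Rpl10) went from 12.34 (CV 0.11) to 7.20 RPKM (CV 0.25; limma adjusted p = 0.0447), and Snora31 (host Tpt1, a translationally controlled gene) from 12.89 (CV 0.13) to 8.54 RPKM (CV 0.15; limma adjusted p = 0.0434). These 3 lie near the threshold, and each was also lost without the filter on low values. Snora30, carried by Srcap, the gene of a chromatin remodeller, had a log2 fold change of -0.88 ± 0.26 that was not called (9.37 and 4.88 RPKM; limma adjusted p = 0.104). Snora74a was the most abundant snoRNA in the table, at 157.38 RPKM (CV 0.08) against 112.42 RPKM (CV 0.16), a log2 fold change of -0.48 ± 0.11 that missed the threshold (limma adjusted p = 0.056).

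Snhg12, a spliced noncoding gene that serves as a snoRNA host, carried 4 tested genes, and they did not move alike. Snora44 went from 27.77 RPKM (CV 0.07) to 15.16 RPKM (CV 0.30), a log2 fold change of -0.85 ± 0.17 (limma adjusted p = 0.0437), and Snora16a from 9.70 (CV 0.23) to 5.31 RPKM (CV 0.14), -0.81 ± 0.15 (limma adjusted p = 0.0319). Both calls were lost without the filter on low values, with limma adjusted p of 0.0761 and 0.0597, and that of Snora44 also without the mean-variance trend and with the CVs raised for rounding. Over all alternatives the adjusted p ran from 0.0262 to 0.169 for Snora44 and from 0.0167 to 0.235 for Snora16a. Snora61 had 14.53 RPKM (CV 0.25) in Dio3+/+ and 15.40 RPKM (CV 0.11) in Dio3-/- hearts. Its log2 fold change was 0.08 with a 95% interval of -0.27 to 0.43 (limma adjusted p = 0.831). Snord99, at 1.76 and 1.90 RPKM, was too low to place. The row of Snhg12 itself had 6.24 and 6.04 RPKM. The difference between Snora61 and its neighbours was not tested, since values of the same heart could not be paired, but the interval of Snora61 does not reach the log2 fold changes of Snora44 and Snora16a.

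Among Snord genes, Snord16a, carried by the ribosomal protein gene Rpl4, fell from 101.53 RPKM (CV 0.18) to 46.77 RPKM (CV 0.25), a log2 fold change of -1.11 ± 0.18 (limma adjusted p = 0.0174). Snord17, the longest Snord transcript here at 238 nucleotides and carried by Snx5, fell from 81.76 (CV 0.07) to 49.05 RPKM (CV 0.21), -0.73 ± 0.13 (limma adjusted p = 0.0257). Snord100, carried by Rps12, had the lowest log2 fold change of the 57 genes on log2(RPKM + 0.5), from 5.01 RPKM (CV 0.43) to 1.36 RPKM (CV 0.17), -1.57 ± 0.24 (limma adjusted p = 0.0136). As a plain ratio of means, Snord95 (3.90) and Snord8 (3.76), neither called, exceeded Snord100 (3.68). The value of Snord100 rests on few reads: with the depth estimated from rows that held a single read, 5.01 and 1.36 RPKM of a 74-nucleotide transcript come to about 10.8 and 3.28 reads per heart.

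Abundant Snord genes that missed the threshold mostly lay in the same direction. Snord15a and Snord15b, which share the host Rps3, had 61.11 and 27.88 RPKM in Dio3+/+ hearts against 36.07 and 20.62 RPKM in Dio3-/- hearts, with limma adjusted p of 0.0532 and 0.166. Snord104, for which the annotation gave no host, had 33.91 RPKM (CV 0.07) against 22.88 RPKM (CV 0.34), with a limma adjusted p of 0.166. Snord49a and Snord49b, both within 2410006H16Rik, had 11.23 and 22.16 RPKM against 6.74 and 13.29 RPKM, near-equal log2 fold changes of -0.70 and -0.72. As similar copies lose reads when only uniquely mapping ones are kept, levels of Snord15a, Snord15b, Snord49a and Snord49b are uncertain. Snord34, within Rpl13a, had the third lowest log2 fold change of the family, -1.10 ± 0.37, and was not called (3.54 and 1.39 RPKM; limma adjusted p = 0.151).

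**Figure D2:**
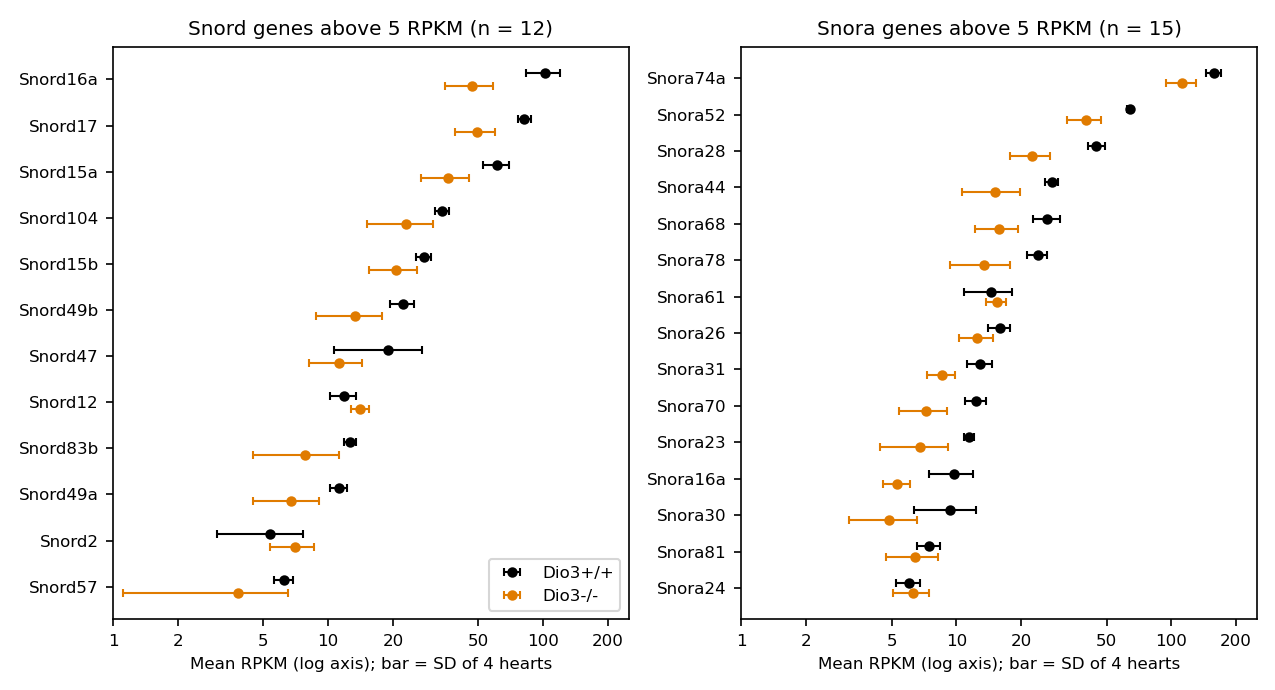
Mean RPKM with SD of 4 hearts on a logarithmic axis, for the 12 Snord and 15 Snora genes above 5 RPKM over both genotypes, Dio3+/+ in black and Dio3-/- in orange. The Dio3-/- mean lies left of the Dio3+/+ mean for 23 of these 27 genes, the exceptions being Snord2, Snord12, Snora24 and Snora61.

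Few genes were higher in Dio3-/- hearts, and none of these passed the adjusted threshold. Snord12 had 11.80 RPKM (CV 0.14) in Dio3+/+ and 14.11 RPKM (CV 0.10) in Dio3-/- hearts, and its log2 fold change was 0.25 with a 95% interval of 0.02 to 0.48 (limma adjusted p = 0.230). Snord2, which lies in Eif4a2 as does Snora81, had 5.35 and 6.98 RPKM (limma adjusted p = 0.514), and Snora81 had 7.46 and 6.44 RPKM. Snord11 had 0.14 RPKM with a CV of 2.00, the value that arises when 1 of 4 hearts holds all the reads, against 1.18 RPKM (CV 0.89) in Dio3-/- hearts. Among genes near a ratio of 1, Snora17 (2.94 and 2.90 RPKM) had the narrowest 95% interval, -0.17 to 0.13, and Snora24 (6.01 and 6.25 RPKM) had one of -0.24 to 0.34.

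Spread between hearts also differed from the rest of the table. For the 27 snoRNA genes above 5 RPKM the median CV was 0.12 in Dio3+/+ and 0.25 in Dio3-/- hearts, and the Dio3-/- CV was the larger in 22 of them (81.5%). Over all tested rows above 5 RPKM the medians were 0.08 and 0.05, and the Dio3-/- CV was the larger in 23.4%. The Dio3-/- hearts, more alike than Dio3+/+ hearts in most transcripts, were thus less alike in abundant snoRNAs. The Dio3-/- CV was also the larger in 6 of 7 small Cajal body RNAs, relatives of the snoRNAs (medians of 0.25 and 0.30). It was the larger in 3 of 4 genes with an Rnu symbol (0.145 and 0.285), a list chosen after the data were seen. That list holds spliceosomal small nuclear RNAs and also Rnu73b, a snoRNA under an older symbol. Of the 10 called genes 8 had the larger CV in Dio3-/-, with medians of 0.12 and 0.21. Which hearts were low cannot be read from the table, nor whether they were those with the later age entry. At or below 5 RPKM, where a heart held a median of about 6.54 (Dio3+/+) or 4.66 reads (Dio3-/-) per snoRNA, the median CVs were 0.44 and 0.46. The widest were those of Snord11 (2.00), Snord8 (0.79) and Snord99 (0.73) in Dio3+/+ and of Snord95 (2.00), Snord8 (1.31) and Snord87 (1.20) in Dio3-/- hearts, all genes below 2 RPKM. No test of the CVs was made.

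**Figure D3:**
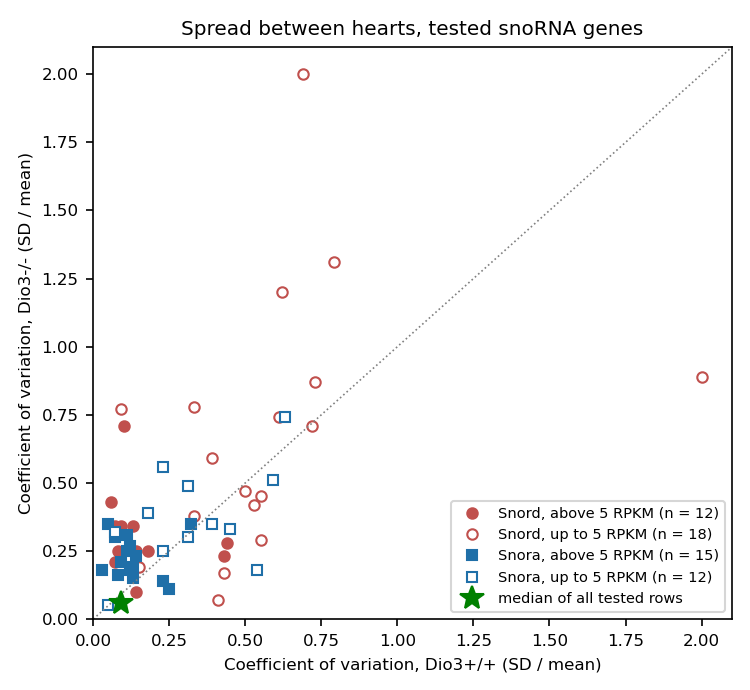
The CV between 4 hearts (SD divided by mean) in Dio3+/+ on the horizontal and Dio3-/- on the vertical axis for the 57 tested snoRNA genes, with filled symbols above 5 RPKM and the star at the median of all tested rows (0.09 and 0.06). Of the 27 filled symbols 22 lie above the dotted line of equal CVs.

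Host genes lay close to no change. A GENCODE host was found for 55 of the 57 tested genes, and 50 of them had a host that was tested as well, 40 hosts in all. The median log2 fold change of these hosts was 0.01, from -0.33 to 0.21, and limma called 0 of 40 at an adjusted p of 0.05, with 1 lower and 2 higher at an unadjusted p under 0.05. As limma called 2.15% of all rows, 0 calls among 40 hosts say little by themselves. In 44 of the 50 pairs the snoRNA had the lower log2 fold change, with a median difference of -0.54, which was not tested since values of the same heart could not be paired. Of the 55 genes with a host, 30 overlapped an exon of at least 1 host transcript, with a median of -0.47 and 8 calls. The 25 that were intronic in every host transcript had a median of -0.66 and 2 calls. Of all rows, 0.266% were called lower. The 2 sets also differed in level, with median levels of 6.15 and 2.32 RPKM, and calls were more frequent above 5 RPKM (9 of 27 genes, against 1 of 30). The difference between the sets was not tested. For the 10 called genes the hosts lay between -0.11 and 0.07: Rpl4, host of Snord16a, had 516.53 and 541.59 RPKM, Eif5 94.99 and 98.08 RPKM, and Rplp2 323.63 and 326.29 RPKM. Hosts were taken from the strand of the snoRNA gene, so reads of a snoRNA and of the host RNA around it cannot be separated within a snoRNA row. The strand of the reads was not stated in the sources used here.

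**Figure D4:**
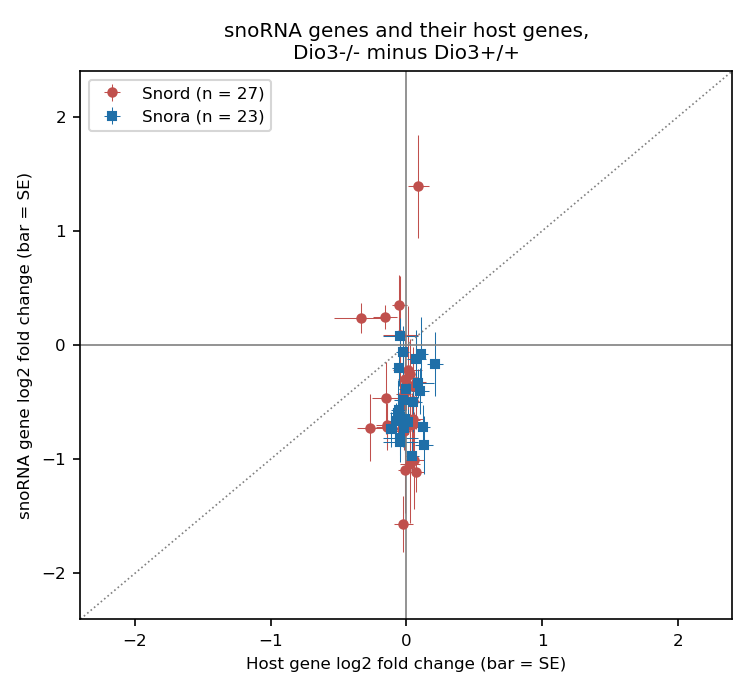
The log2 fold change (Dio3-/- minus Dio3+/+, with SE) of the host gene on the horizontal and of the snoRNA gene on the vertical axis for 50 pairs, 27 Snord and 23 Snora. Hosts stay between -0.33 and 0.21, 44 of 50 points lie below the dotted line of equal change, and a host with several snoRNA genes appears once for each.

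Grouped by host, all 17 tested snoRNA genes within ribosomal protein genes had a negative log2 fold change, with a median of -0.66 and 5 calls, among them Snora52, Snora70, Snord16a and Snord100. The 19 within other protein-coding genes had a median of -0.57, with 17 negative and 3 called (Snora28, Snora31 and Snord17). The 19 within hosts that the annotation does not tag as protein-coding had a median of -0.40, with 14 negative and 2 called, Snora16a and Snora44. Among those 19 is Snora15, whose host Cct6a encodes a chaperonin subunit but is tagged as a processed transcript. In the order given, the median levels of the classes were 4.34, 1.91 and 7.5 RPKM, and calls among the 57 genes were more frequent above 5 RPKM. Of all rows, 36.4% had a negative log2 fold change and 0.266% were called lower. Differences between these classes were not tested, and the genes of a class share hosts.

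Messages for the proteins that build snoRNA particles also lay close to no change. Of the 4 core box C/D proteins, Fbl (fibrillarin), Nop56, Nop58 and Nhp2l1, limma called 0, with 0 at an unadjusted p under 0.05 and a median log2 fold change of 0.04. Fbl itself had 45.00 RPKM (CV 0.09) in Dio3+/+ and 45.45 RPKM (CV 0.07) in Dio3-/- hearts. Of the 4 core box H/ACA proteins, Dkc1 (dyskerin), Gar1, Nhp2 and Nop10, limma also called 0, with 0 at an unadjusted p under 0.05 and a median of 0.06; Dkc1 had 16.24 and 17.56 RPKM. Of 13 assembly factors, among them Naf1, Shq1 and Nufip1, limma called 0, with 1 higher at an unadjusted p under 0.05 and a median of 0.06. With 2.15% of all rows called, 0 calls in lists this short say little about these genes.

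Small Cajal body RNAs, which guide the modification of spliceosomal RNAs and have the same boxes, lay in the same direction without a call. All 7 tested of 8 had a negative log2 fold change, with a median of -0.43, and 4 were lower at an unadjusted p under 0.05 (3.86% of all rows). Scarna10 had 41.29 RPKM (CV 0.08) against 31.40 RPKM (CV 0.24), and Scarna6 had 15.03 (CV 0.18) against 10.40 RPKM (CV 0.26). Of RNAs that belong to other particles, Rmrp and Rpph1, the RNA parts of the ribonucleases MRP and P, had 11790.6 and 3170.33 RPKM in Dio3+/+ against 10411.5 and 2825.75 RPKM in Dio3-/- hearts, log2 fold changes of -0.18 and -0.17, neither called. Terc, the H/ACA RNA of telomerase, had 8.19 and 6.84 RPKM.

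**Figure D5:**
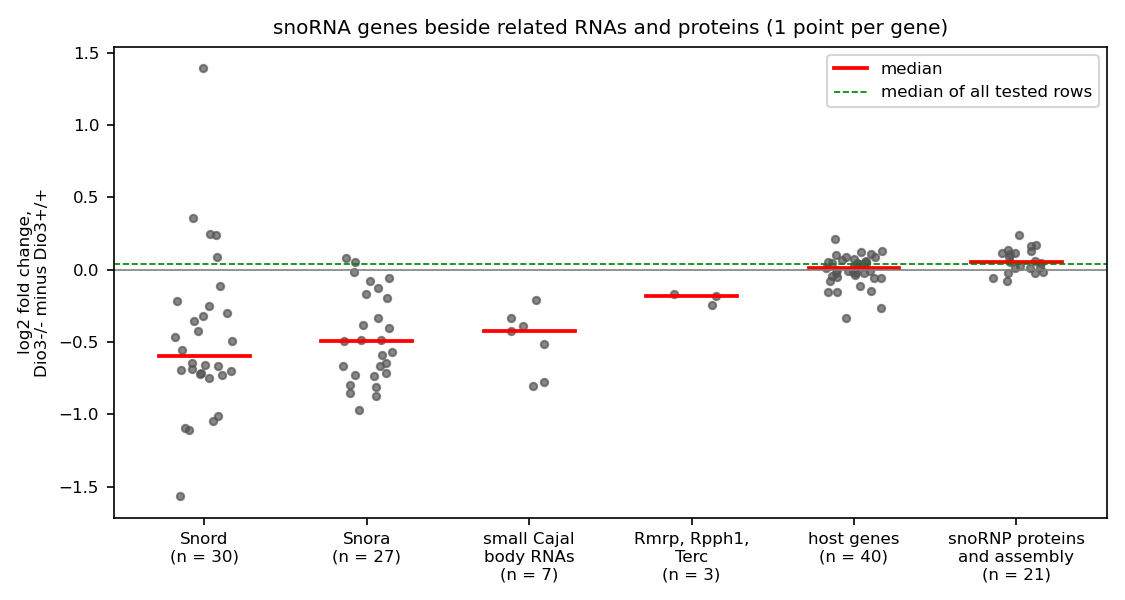
The log2 fold change on log2(RPKM + 0.5), Dio3-/- minus Dio3+/+, of each tested gene by group, with the group median as a red bar and the median of all tested rows as a dashed green line. Medians were -0.60 for Snord, -0.50 for Snora, -0.43 for small Cajal body RNAs, -0.18 for Rmrp, Rpph1 and Terc, and 0.01 for host genes, with particle proteins and assembly factors close to the latter.

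The Dio3 gene lies in an imprinted domain whose noncoding RNA Rian carries box C/D snoRNAs of its own. Rian had 86.27 RPKM (CV 0.58) in Dio3+/+ and 49.16 RPKM (CV 0.09) in Dio3-/- hearts, and its log2 fold change of -0.81 was not called (limma adjusted p = 0.234). Of the 11 noncoding hosts tested, Rian among them, limma called 0 (2.15% of all rows). Their median was -0.04, with 3 lower at an unadjusted p under 0.05 (3.86% of all rows). Of snoRNAs known from imprinted domains, Snord116 (0.26 and 0.17 RPKM) and Snord64 (0.16 and 0 RPKM) were too low to be tested.

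Marker genes of the cells in the hearts moved as well. Heart muscle markers were present in both genotypes, 5 of 5, with summed levels of 6940 and 8107 RPKM. All 5 had the higher mean in Dio3-/- hearts, 3 of them at limma's unadjusted p under 0.05. Of the 5, 1 was called, Ryr2 (24.20 and 36.62 RPKM, limma adjusted p = 0.0231). Of all 32703 rows, 20593 had a positive log2 fold change, 4872 were higher at that unadjusted p and 616 were called higher. The 4 red cell markers with a row were each lower in Dio3-/- hearts at that unadjusted p (3.86% of all rows), with sums of 784.32 and 307.66 RPKM. Of them 1 was called, Hbb-bh1 (317.82 and 110.93 RPKM, limma adjusted p = 0.0468), and their median CVs of 0.35 and 0.49 were wide. Liver markers, 5 of 5, summed to 12.43 and 93.78 RPKM with median CVs of 1.24 and 1.18. All 5 were higher at the unadjusted p, without a call, and Ttr and Fgb passed the filter through Dio3-/- hearts alone. The skeletal muscle markers Myod1 and Myog summed to 14.20 and 1.63 RPKM. Both were lower at the unadjusted p, without a call, and Myod1 passed the filter through Dio3+/+ hearts alone. Of the remaining lists, the 3 endothelial markers summed to 141.69 and 152.60 RPKM and the 4 macrophage markers to 13.05 and 12.29 RPKM, with no call. Of these, 1 endothelial marker, Kdr, was higher at the unadjusted p. The neuronal marker Tubb3 rose by a log2 fold change of 0.65 (limma adjusted p = 0.00856). The part of these cells in the snoRNA levels was not tested.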

How the data were processed

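Hearts of 4 Dio3+/+ and 4 Dio3-/- fetuses were grouped by the genotype in the labels. The authors extracted total RNA with the RNeasy Mini kit, removed ribosomal RNA (Ribo-Zero), fragmented it, primed it at random and sequenced single 75-base reads. Of the tested snoRNA genes 13, all Snord, had transcripts no longer than a read. How well this protocol recovered such short RNAs from each heart was not tested. Per the labels and the study's methods, reads were checked with FastQC and aligned with Novoalign 2.08, uniquely mapping reads were kept, and libraries were scaled linearly to the smallest. The genome build is not given in the sources used here. The deposited table has 51414 transcript rows with a mean RPKM per genotype and a CV, a ratio of SD to mean given to 2 decimals. Single hearts are not used here. Columns with the authors' own comparison (fold change, q-value, flags) were not used. RPKM was checked on rows whose reads came from 1 heart.

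SDs were rebuilt from means and CVs and carried to log2(RPKM + 0.5), and 32703 rows that exceeded 1 RPKM in either genotype were tested with limma 3.58.1 (R 4.3.3; empirical Bayes with a mean-variance trend, 6 residual degrees of freedom), with Benjamini-Hochberg adjustment. Fold changes on this scale understate those of low genes. The fit was tested on simulated data. Each RNA came from 1 mouse, so p-values measure the spread between mice. Intervals are 95% limits from the same fit. Reads per heart are estimates from the worth of a single read, and they cover counting error only. Transcripts, hosts and sequences came from GENCODE M21 on GRCm38, joined by symbol and RefSeq synonyms. Named snoRNA genes were those called, the 5 with the highest level and the 3 with the highest and lowest log2 fold change in each family, the 3 with the largest CV in each genotype and those of imprinted domains. Others were named after their values were seen. A host gene and a marker gene are not reported here. The snoRNA genes and gene lists were chosen with earlier results of these data known. Alternatives varied the pseudocount, filter, variance model, centring, CV rounding and rows per gene.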

Additional observations from a re-analysis of the deposited data

How the results depend on the processing

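Every alternative used the same genotype means, so the direction of a gene could change only through centring on the median, where 50 of 57 were lower in Dio3-/- hearts. The number called varied. In place of 10, limma called 5 without a filter on low values (91 genes tested), 6 without the mean-variance trend and 6 with each CV raised by 0.005 for rounding, all lower in Dio3-/- and all among the 10. Welch's test on the summaries called 0, with 18 lower at an unadjusted p under 0.05 and a lowest adjusted p of 0.0768 (Snora28, whose adjusted p ran from 0.00336 to 0.0768 over all alternatives). With pseudocounts of 0.1 or 1, or 1 row per gene, the same 10 were called, and 9 of them after centring on the median. A limit of 5 RPKM over both genotypes gave 12 calls among 27 genes, and leaving out rows with a CV above 0.5 gave 14 among 39, both with Snora74a and Snord15a. No paired analysis was possible because the table holds no values of single hearts, and for the same reason hearts could not be left out in turn, so the weight of any 1 heart is unknown. Depth limits the genes at or below 5 RPKM, with a median of about 6.54 and 4.66 reads per heart.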

Other observations

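Genes with an Rnu symbol, mostly small nuclear RNAs of the spliceosome, were listed after the data had been seen. They included 2 calls among 4 tested genes, both lower in Dio3-/- hearts (0.266% of all rows were called lower). Rnu1b2, a U1 RNA, had 370.40 RPKM (CV 0.06) in Dio3+/+ and 245.99 RPKM (CV 0.11) in Dio3-/- hearts, with a log2 fold change of -0.59 (limma adjusted p = 0.00826). Rnu12, the U12 RNA of the minor spliceosome, had 24.22 RPKM (CV 0.04) and 12.29 RPKM (CV 0.34), -0.95 (limma adjusted p = 0.0418). Rnu11 had 28.67 and 24.96 RPKM and Rnu73b 1.45 and 0.34 RPKM, neither called. Rnu73b is not a spliceosomal RNA but a snoRNA, left out of the snoRNA genes above only by its symbol.

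The 41 other tested genes with transcripts under 200 nucleotides, Rnu73b among them, had a median log2 fold change of -0.20. Of these genes 3 were called lower and 1 higher. The 30 of them with a microRNA symbol had a median of 0.04, with 0 called lower and 1 higher by limma, and 5 lower and 2 higher at an unadjusted p under 0.05. Whether short RNAs as a class differed from snoRNAs was not tested.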
